A study of Ovis aries with 6 samples.

Results

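Protein phosphatases 1 and 2A (PP1 and PP2A) and their close relatives PP4, PP5 and PP6 remove phosphate groups from serine and threonine residues. The subunit genes of these enzymes were examined in the longissimus dorsi muscle of a pair of sheep breeds, the Qianhua Mutton Merino (QHMM), a recent variety, and the local Small Tail Han (STH). Members were all genes of the deposited table whose symbol began with PPP1, PPP2, PPP4, PPP5 or PPP6 followed by C, for a catalytic subunit, or R, for a regulatory subunit, and 62 of 23144 genes met this rule. RNA came from 3 QHMM and 3 STH females aged 1 year, with 1 library per animal, and housing and feeding did not differ by breed. QHMM was bred for mutton and wool from South African Mutton Merino sires and Northeast Fine-wool dams, and STH is a traditional local breed. The labels name no treatment, so breed was the only contrast, and all comparisons are STH vs. QHMM.

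The catalytic subunits of PP1 and PP2A have little substrate choice of their own. A regulatory subunit binds the catalytic subunit, takes it to a place in the cell such as the glycogen particle, the myosin filament or the endoplasmic reticulum, and thereby sets what is dephosphorylated, while small inhibitor proteins hold the enzyme back. In skeletal muscle, PP1 on glycogen switches glycogen synthase on and glycogen phosphorylase off, and PP2A is assembled from a catalytic subunit, a scaffold and 1 of several B-type subunits.

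Between 10982191 and 14334544 reads were counted on genes in each library, and a count of 0 allowed up to 3 counts, which is 0.209 to 0.273 CPM, counts scaled to library size, and covers counting error only. Levels per library are given below as counts normalized by the TMM method, which scales each library to a common size. Levels of different genes are compared as RPKM, which divides by gene length and library total without TMM scaling. Overlap between breeds was judged on normalized counts unless RPKM is named. The edgeR quasi-likelihood test was fitted to the 12506 genes that passed its filter for low counts, and a gene was called when its Benjamini-Hochberg adjusted p (FDR) was below 0.05 and it differed more than 1.5-fold (0.585 on the log2 scale). The first principal component of all genes, with 43.6% of the variance, separated the breeds. Sums of RPKM over the skeletal muscle markers were 90150 to 103400 in QHMM and 68100 to 112700 in STH. The labelled tissue was thus seen in each library, although the fast-fibre gene TNNT3 was listed at 0 in all of them. Of the 8 tested skeletal muscle markers none was called. CASQ1, at a log2 fold change of -1.37 (edgeR FDR 0.0714), was lower in STH without overlap.

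Of the 62 members, 51 were tested and 3 were called, which is 5.88% of those tested against 3.45% of all tested genes. PPP1R3C and PPP1R1B were lower in STH. PPP2R2D was higher, and it passed the filter for low counts only through the STH libraries. The breeds did not overlap in normalized counts for 13 members, 10 lower and 3 higher in STH, a share of 25.5% against 24.7% of all tested genes (11.7% lower and 13.0% higher). This depends on the scaling. In RPKM, PPP1R3B, PPP6C, PPP1R9B, PPP2R5A, PPP2R5C and PPP4R1 of these members overlapped, while PPP4C and PPP1R12B were among others that did not. An unadjusted p below 0.05 was given to 11 members, 9 of them lower in STH, where 19.2% of all tested genes had one. The log2 fold change was above 0 in 25 members and below 0 in 26, and its median size without the sign was 0.34, as it was over all tested genes. As a family, the phosphatase genes lay close to the background, and the values that stood apart belonged to single subunits.

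**Figure D1:**
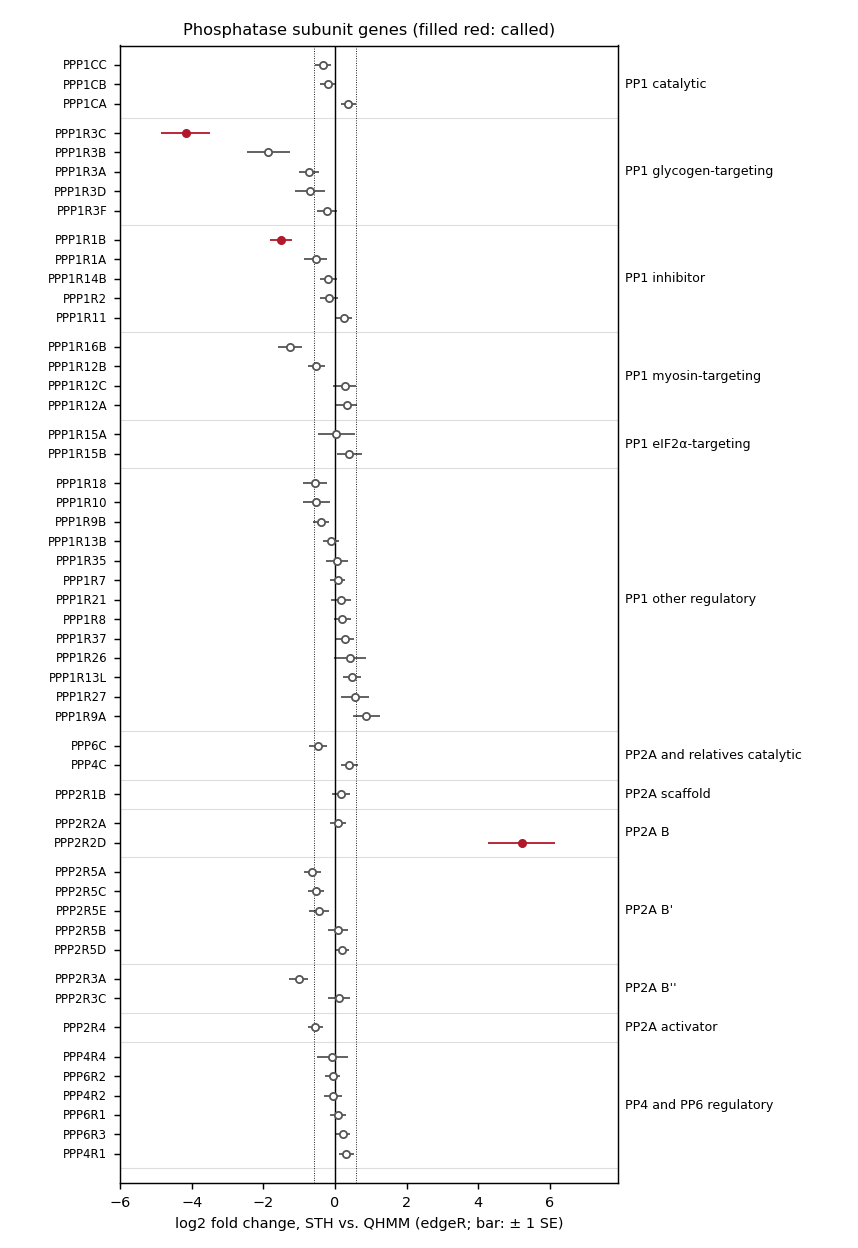
Log2 fold change (STH vs. QHMM, horizontal axis) of each of the 51 tested phosphatase subunit genes, grouped by role. Points are edgeR estimates from 3 libraries per breed, bars are 1 SE on each side, dotted lines mark 1.5-fold, and filled red points are the 3 called genes, PPP1R3C at -4.17, PPP1R1B at -1.51 and PPP2R2D at 5.22.

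No catalytic subunit gene was called. PPP1CA, PPP1CB and PPP1CC encode the alpha, beta and gamma forms of the PP1 catalytic subunit. PPP1CA stood at 1248, 1531 and 1162 normalized counts in the QHMM libraries, in the order of replicates 1, 2 and 3 used throughout, and at 1602, 1604 and 1912 in the STH replicates. All STH libraries were above all QHMM libraries, but the log2 fold change of 0.38 (SE 0.22, 95% interval -0.10 to 0.85) did not pass the test (FDR 0.378).

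PPP1CB stood at 1053, 1029 and 1401 in QHMM and at 1131, 1014 and 874.9 in STH. PPP1CC stood at 319.6, 372.2 and 441.6 in QHMM and at 308.6, 332.3 and 256.5 in STH. The breeds overlapped for both genes, with log2 fold changes of -0.21 (95% interval -0.69 to 0.28) and -0.34 (95% interval -0.82 to 0.15) and FDR values of 0.664 and 0.446. Per gene length, PPP1CA was the most abundant of the PP1 catalytic genes in each library, and its share of their summed RPKM was 57.5% to 69.5% in QHMM and 71.1% to 78.7% in STH. A separate gene model named only as a PP1-gamma-like locus had 105 to 195 counts per library, and PPP1CC held 65.9% to 73.1% of the reads of the pair. Only unique mapped reads were kept, and whether reads from such near copies were lost or misplaced was not tested.

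PPP4C, the catalytic subunit of PP4, stood at 462.4, 506.8 and 324.9 normalized counts in QHMM and at 467.9, 619.7 and 617.3 in STH. PPP6C, that of PP6, stood at 175.0, 180.2 and 245.7 in QHMM and at 157.6, 166.7 and 109.8 in STH. The breeds overlapped for PPP4C and did not overlap for PPP6C, which was below all QHMM libraries in each STH library. Their log2 fold changes were 0.40 (SE 0.24, 95% interval -0.12 to 0.92) and -0.47 (SE 0.26, 95% interval -1.04 to 0.11), with FDR values of 0.395 and 0.360. The symbols PPP2CA, PPP2CB, PPP2R1A and PPP5C were not listed among the gene names, and the loci whose deposited best match bore those names are not members. Those 4 loci had log2 fold changes of 0.04, -0.07, 0.32 and 0.08, with an SE of 0.22 to 0.25, and none was called.

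The largest difference among subunits lower in STH was in the glycogen-targeting group, whose PPP1R3 proteins bring PP1 to glycogen. Of its 5 members, all of which were tested, 1 was called, where 3.45% of all tested genes were. An unadjusted p below 0.05 was given to 3 of them, where 19.2% of all tested genes had one. All 5 had a log2 fold change below 0, as did 6026 of the 12506 tested genes. Their sign held in each of the 15 other settings, which reuse the same libraries. Their median log2 fold change was -0.72, where that of all tested genes was 0.02.

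PPP1R3C encodes protein targeting to glycogen (PTG), which holds PP1, glycogen synthase and phosphorylase together on the particle. It stood at 6469, 8243 and 8613 normalized counts in the QHMM libraries and at 888.0, 81.2 and 324.9 in the STH replicates. Each STH library was far below each QHMM library, and the STH libraries themselves were spread, with replicate 1 the highest and replicate 2 the lowest. The means were 7775 ± 1146 (SD, n = 3) and 431.3 ± 413.8 (SD, n = 3), and the gene was 18-fold lower in STH. On the log2 scale PPP1R3C fell by 4.17 (SE 0.68, 95% interval -5.67 to -2.66; edgeR FDR 0.0134). It was the 1 member called under all settings, with log2 fold changes of -5.27 to -3.70 when each library was left out in turn. Background for its direction is that 1.83% of all tested genes were called lower in STH. From RNA of whole muscle, fewer cells of a type and less RNA per cell cannot be told apart.

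PPP1R3A encodes the large glycogen-targeting subunit of striated muscle, which also anchors PP1 at the sarcoplasmic reticulum. It stood at 2169, 1781 and 3060 in QHMM and at 1870, 1157 and 1218 in STH. STH replicate 1 lay within the QHMM range and the other STH libraries lay below it, at a log2 fold change of -0.72 (SE 0.28, 95% interval -1.35 to -0.10) that did not pass the test (FDR 0.190).

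PPP1R3B encodes the glycogen-targeting subunit first known from liver. It stood at 770.4, 464.7 and 743.1 normalized counts in QHMM and at 404.4, 56.6 and 78.4 in STH. The breeds did not overlap in these counts, but STH replicate 1 was close to QHMM replicate 2, while the other STH libraries were far lower. In RPKM the breeds overlapped, with 16.8 in STH replicate 1 and 13.7 in QHMM replicate 2. On the log2 scale PPP1R3B was at -1.86 (SE 0.60, FDR 0.122), and without STH replicate 1 it was -3.30 and passed the test.

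PPP1R3D stood at 103.6, 197.8 and 93.4 in QHMM and at 94.1, 37.4 and 110.9 in STH, and PPP1R3F stood at 58.9, 62.0 and 68.0 in QHMM and at 48.7, 47.0 and 66.1 in STH. Both genes, which encode less studied glycogen-targeting subunits, overlapped between breeds. Log2 fold changes were -0.70 (SE 0.42, FDR 0.398) for PPP1R3D and -0.23 (SE 0.28, FDR 0.713) for PPP1R3F.

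The make-up of the group differed between breeds along with its total. Summed over the 5 genes, RPKM was 264 to 358 in QHMM and 32.2 to 97.5 in STH. PPP1R3C took 72.5%, 80.2% and 74.5% of that sum in the QHMM libraries and 32.8%, 8.38% and 22.7% in the STH libraries. The muscle form PPP1R3A took 10.4% to 15.9% in QHMM and 41.5% to 71.8% in STH, so it was the leading glycogen-targeting transcript in each STH library and PPP1R3C in each QHMM library. The ratio of PPP1R3C to PPP1R3A RPKM was 4.68 to 7.70 in QHMM and 0.117 to 0.790 in STH. Set against the 3 PP1 catalytic genes, the summed RPKM of the glycogen-targeting genes was 2.47 to 3.04 times as high in QHMM and 0.230 to 0.638 times as high in STH. These ratios and shares hold within a library and do not depend on the scaling between libraries.

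**Figure D2:**
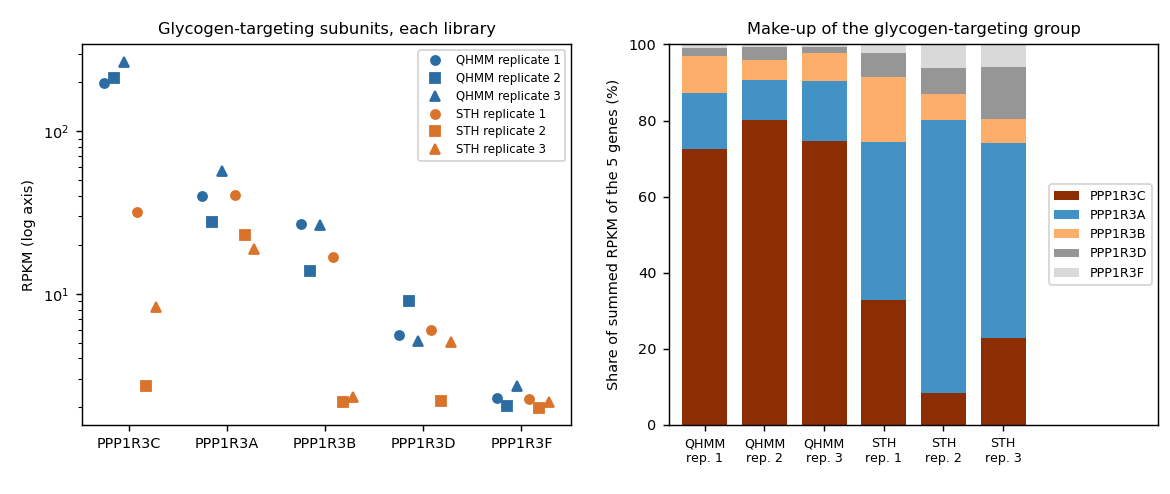
RPKM (log axis) of the 5 glycogen-targeting subunit genes in each of the 6 libraries on the left, and their shares of the summed RPKM of the 5 genes in each library on the right. PPP1R3C lies at 197 to 267 RPKM in QHMM and at 2.70 to 32.0 RPKM in STH, and PPP1R3A makes up the largest share of each STH bar.

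Other cell types and fibre types were measured beside these genes. Of all tested genes, 11.7% were lower in STH without overlap and 1.83% were called lower. All 7 tested slow-fibre markers were lower in STH with no overlap between breeds, and 3 of them were called (OMYHCS, TNNT1 and MYL2). The summed RPKM of the slow-fibre markers was 16460 to 23790 in QHMM and 7270 to 11210 in STH. None of the 7 tested fast-fibre markers was called, with sums of 57890 to 77120 and 50870 to 67580. All 7 had a log2 fold change below 0 (median -0.32), and ACTN3, at -1.02, did not overlap between breeds. Of the 6 adipocyte markers, 4 were called lower in STH (ADIPOQ, PLIN1, LEP and CIDEC), while FABP4 and CIDEA were not, and the summed RPKM of the 6 overlapped, at 60.3 to 291.0 in QHMM and 42.6 to 129.7 in STH. No marker of smooth muscle, endothelium, leukocytes, nerve or fibroblasts was called, and the blood marker SLC4A1 was at or under 3 counts. Of these, the fibroblast marker COL1A1 was lower in STH without overlap (-1.30), and the endothelial markers VWF (0.40) and EMCN (0.67) were higher without overlap. The part of slow fibres and of adipocytes in the PPP1R3C difference was not tested.

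Several of the enzymes that make and break glycogen carry phosphates that PP1 removes, and glycogen genes formed 1 of 4 lists of genes that act with the phosphatases. Of 17 tested glycogen genes, 3 were called, or 17.6% against 3.45% of all tested genes, and 9 did not overlap between breeds, or 52.9% against 24.7%. An unadjusted p below 0.05 was given to 9 of them, 8 lower in STH. Their median log2 fold change was -0.45, against 0.02 over all tested genes. The glycogen synthase gene GYS1 and the phosphorylase gene PYGM both overlapped between breeds. Their log2 fold changes were -0.33 (SE 0.28, edgeR FDR 0.572) and -0.12 (SE 0.31, edgeR FDR 0.879).

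STBD1, a glycogen-binding protein of internal membranes, stood at 1709, 1930 and 1966 normalized counts in QHMM and at 636.3, 179.5 and 597.1 in STH. Each STH library was below each QHMM library, and STBD1 fell by 1.99 on the log2 scale (SE 0.40, FDR 0.0260). UGP2, which makes the UDP-glucose used by glycogen synthase, stood at 1434, 1778 and 2213 in QHMM and at 3694, 3637 and 3717 in STH. Each STH library was above each QHMM library, and UGP2 rose by 1.03 on the log2 scale (SE 0.24, FDR 0.0435), in a direction in which 1.62% of all tested genes were called.

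These calls were less firm than that of PPP1R3C. UGP2 lost its call whichever library was left out, with log2 fold changes of 0.86 to 1.20, and STBD1 lost it without any 1 of the QHMM libraries, at -2.07 to -1.95. GYG1, the protein primer of glycogen, and PHKB, a subunit of phosphorylase kinase, had log2 fold changes of -0.99 (SE 0.32, FDR 0.124) and -0.93 (SE 0.28, FDR 0.104).

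**Figure D3:**
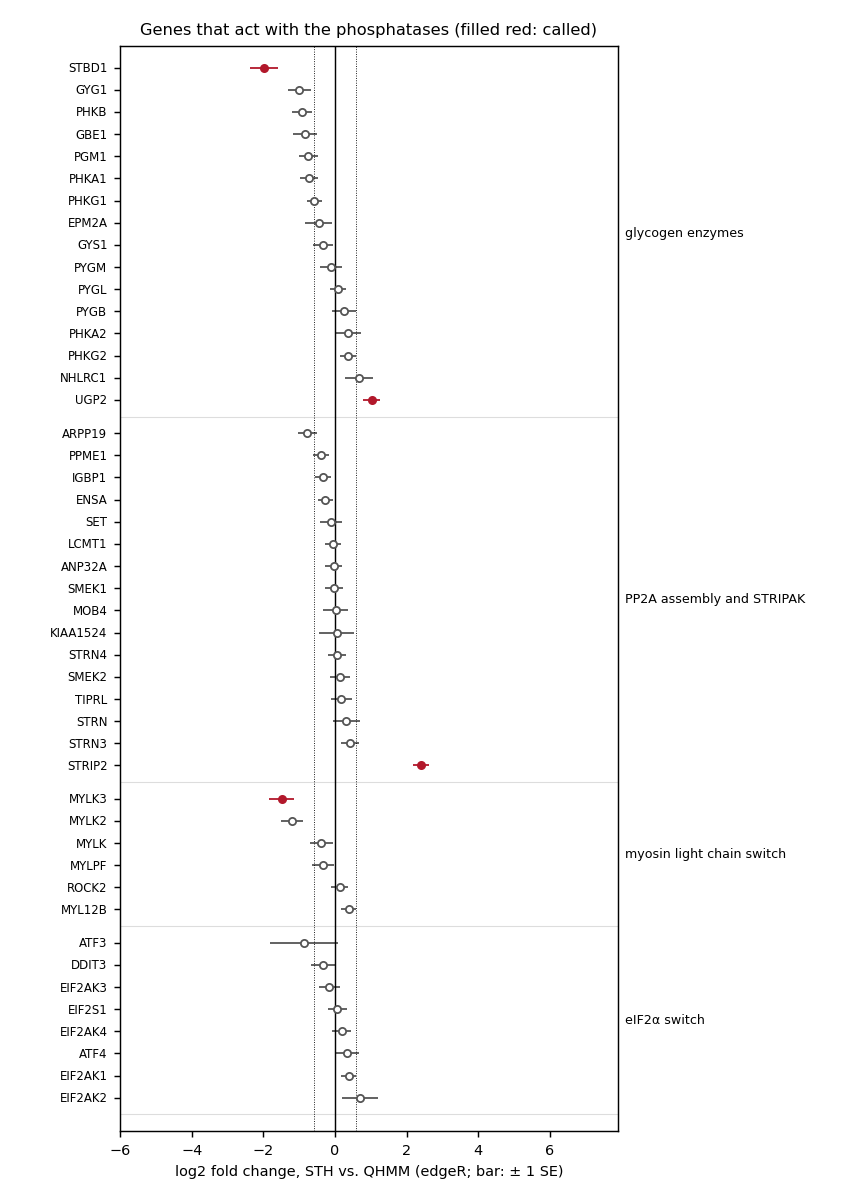
Log2 fold change (STH vs. QHMM, horizontal axis) of 46 of the 49 tested genes of the 4 lists that act with the phosphatases. Points are edgeR estimates from 3 libraries per breed, bars are 1 SE on each side, dotted lines mark 1.5-fold, and the 4 called genes drawn, filled red, are STBD1 at -1.99, UGP2 at 1.03, STRIP2 at 2.41 and MYLK3 at -1.49.

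Among the inhibitors of PP1, 5 of 9 members were tested and 1 was called, where 3.45% of all tested genes were. PPP1R1B encodes DARPP-32, an inhibitor of PP1 that is switched on by protein kinase A and is best known from brain. It stood at 189.3, 156.8 and 112.7 in QHMM and at 68.5, 44.9 and 47.1 in STH. No STH library reached the lowest QHMM library, and the means were 152.9 ± 38.4 and 53.5 ± 13.1 (SD, n = 3 each). PPP1R1B fell by 1.51 on the log2 scale (SE 0.30, 95% interval -2.16 to -0.85; edgeR FDR 0.0248). The direction held in each setting, but the call was lost without QHMM replicate 1 (-1.35), QHMM replicate 2 (-1.49), STH replicate 2 (-1.41) or STH replicate 3 (-1.42), and in the 3 fits to RPKM.

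PPP1R1A encodes inhibitor-1, the related inhibitor of skeletal muscle, and had the highest mean RPKM over the 6 libraries of all members, with breed means of 1731 in QHMM and 1240.5 in STH. It stood at 13152, 15220.4 and 15540.3 normalized counts in QHMM and at 6845, 8115 and 15426 in STH. STH replicates 1 and 2 were below the QHMM range and STH replicate 3 was inside it. The log2 fold change of -0.53 (SE 0.32, 95% interval -1.24 to 0.18) did not pass the test (FDR 0.404). Per gene length, PPP1R1A was 14.9 to 16.6 times the sum of the PP1 catalytic genes in QHMM and 6.58 to 13.7 times in STH, with no overlap. PPP1R14B, PPP1R2 and PPP1R11, which encode further PP1 inhibitors, had log2 fold changes of -0.18, -0.16 and 0.24, and all overlapped between breeds. The deposited best match of PPP1R14B was listed as LIMK2 and a separate locus was matched to PPP1R14B, so its level is uncertain.

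**Figure D4:**
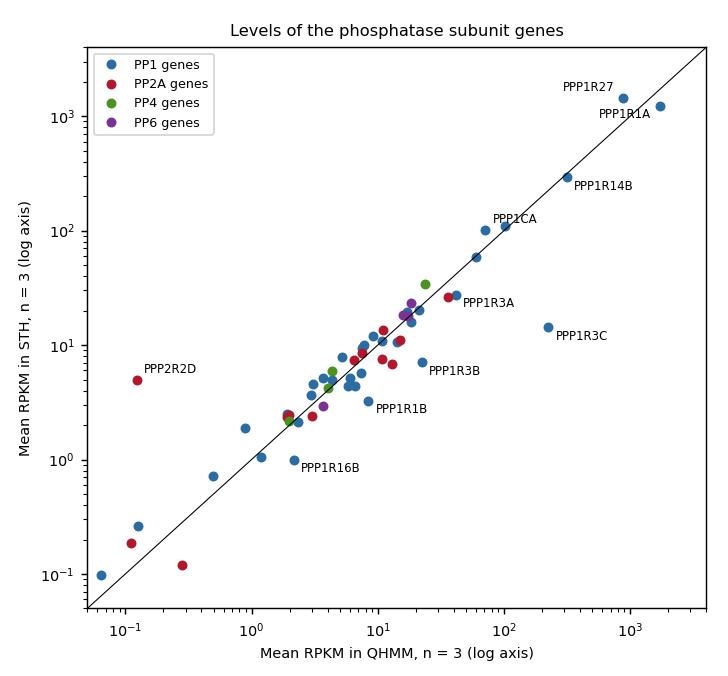
Mean RPKM of each member in QHMM (horizontal axis, log scale) and STH (vertical axis, log scale), n = 3 libraries each, coloured by enzyme, with the line of equal levels. Members with a mean of 0 in either breed cannot be drawn on these axes. PPP1R1A and PPP1R27 lie at the upper end near the line, PPP1R3C lies far below it, and PPP2R2D lies far above it.

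The myosin-targeting subunits join PP1 to the light chains of myosin in smooth and striated muscle. None of the 4 tested members was called. PPP1R12B, the subunit of striated muscle, took the largest share of the 3 PPP1R12 genes in each library, at 61.5% to 77.6% of their RPKM in QHMM and 53.4% to 70.3% in STH. It stood at 322.3, 474.0 and 440.6 in QHMM and at 249.2, 263.9 and 349.5 in STH. STH replicate 3 alone lay inside the QHMM range, at a log2 fold change of -0.52 (SE 0.24, FDR 0.264). PPP1R12A and PPP1R12C, the more widely used forms, had log2 fold changes of 0.32 and 0.27.

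PPP1R16B encodes a membrane-bound relative of the same group that is abundant in endothelial cells. It stood at 133.0, 132.3 and 266.0 normalized counts in QHMM and at 91.6, 73.7 and 56.0 in STH. The breeds did not overlap, and QHMM replicate 3 was far above the other libraries. PPP1R16B was at -1.26 on the log2 scale (SE 0.34), and the FDR of 0.0709 missed the threshold. Of the 4 endothelial markers none was called, and their summed RPKM was 115.1 to 147.4 in QHMM and 119.9 to 199.4 in STH. VWF (0.40) and EMCN (0.67) were higher in STH without overlap, while PECAM1 (0.04) and CDH5 (-0.22) overlapped between breeds. Of 7 tested genes of the myosin light chain switch, 1 was called, where 3.45% of all tested genes were. MYLK3, a myosin light chain kinase, fell by 1.49 on the log2 scale (SE 0.34, FDR 0.0438). Among the fits that left out 1 library, it kept its call only without STH replicate 1, at -2.03, and was at -1.57 to -1.26 in the others. MYLK2, the kinase of skeletal muscle, was at -1.20 (SE 0.30, FDR 0.0571).

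PPP1R15A and PPP1R15B take PP1 to the translation factor eIF2alpha, the former induced by stress and the latter always present. PPP1R15A varied more within QHMM than between breeds. Its counts were 5525, 3049 and 863.9 in the QHMM replicates, a range of 6.40-fold, and 2981, 2478 and 4230 in the STH replicates. Between breeds it was at 0.04 on the log2 scale with an SE of 0.51 (FDR 0.977), and it ranged from -0.41 to 0.70 when single libraries were left out. PPP1R15B was at 0.41 (SE 0.35, FDR 0.572), with overlap. None of the 8 tested kinases and targets of the eIF2alpha switch was called, and none had an unadjusted p below 0.05. EIF2AK1 and EIF2AK2, kinases of eIF2alpha, had the lowest p of that list, at log2 fold changes of 0.38 (SE 0.22) and 0.71 (SE 0.50).

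Of the 16 other PP1 regulatory genes, 13 were tested and none was called. PPP1R27, which encodes an ankyrin-repeat protein that binds dysferlin, had the next highest RPKM, with breed means of 882.5 in QHMM and 1433 in STH. It stood at 9903, 14233 and 6251 in QHMM and at 8295, 22234 and 14000 in STH. STH replicate 2 was the highest of all libraries, STH replicates 1 and 3 lay within the QHMM range, and the log2 fold change was 0.55 (SE 0.39, FDR 0.492). PPP1R1A exceeded PPP1R27 in RPKM in each QHMM library, by 1.42 to 3.30 times, while in STH the ratio was 0.484 to 1.46.

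PPP1R9A and PPP1R9B encode neurabin and spinophilin, scaffold proteins that bind PP1 and actin. PPP1R9A stood at 58.0, 50.3 and 40.6 in QHMM and at 133.7, 96.2 and 43.7 in STH, where replicate 3 lay within the QHMM range. Its log2 fold change was 0.88 (SE 0.39, FDR 0.248). On the log2 scale PPP1R9B was at -0.39 (SE 0.22, FDR 0.368), and its STH counts, 214.7 to 265.7, were all under those of QHMM, 266.0 to 344.1, by a narrow margin. PPP1R13L, an inhibitor of p53 family proteins, was at 0.48, PPP1R10, a nuclear targeting subunit, at -0.52, and PPP1R18, an actin-binding subunit, at -0.57. The FDR of these 3 genes was 0.344 to 0.494, and all overlapped between breeds. The other 7 tested genes of the group had log2 fold changes from -0.10 to 0.42.

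Among PP2A regulatory genes, 11 of 14 members were tested and 1 was called, where 3.45% of all tested genes were. PPP2R2D encodes the delta form of the B subunit, through which PP2A acts on mitotic substrates. It was deposited with 1, 3 and 1 raw counts in the QHMM libraries and with 67, 12 and 122 in the STH libraries. Each QHMM library was at or under the 3 counts that a 0 allows, and each STH library was above them, with STH replicate 2 far below the other STH libraries. In total 201 reads in STH stood against 5 in QHMM, a ratio of 39.1 after scaling, with an exact 95% interval of 16.5 to 121.8 for counting error alone. The edgeR test called it (FDR 0.0186), and its fitted log2 fold change of 5.22 (SE 0.94) depends on the prior count because the QHMM counts are so low. The call was lost without QHMM replicate 1 (4.86) or QHMM replicate 3 (4.97), while the other fits without 1 library gave 4.24 to 5.99.

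PPP2R2A, the alpha form of the same subunit and the usual one in most tissues, stood at 323.2, 290.3 and 346.2 normalized counts in QHMM and at 267.4, 409.2 and 338.3 in STH. It overlapped between breeds, at a log2 fold change of 0.08 (SE 0.22, 95% interval -0.42 to 0.58). PPP2R2B, with 1 to 12 counts per library, and PPP2R2C, with 0 to 10, were too low to be tested. PPP2R2D made up 0.937% to 3.95% of the summed RPKM of the 4 PPP2R2 genes in QHMM. In the STH libraries it made up 40.5%, 9.79% and 58.7%, and in replicate 3 it exceeded PPP2R2A in RPKM. In raw counts it did not, at 122 in that library against 302 for PPP2R2A. The length implied by the deposited counts and RPKM was 1033 bases for PPP2R2D and 3682 bases for PPP2R2A. Over the 12 PPP2R2, PPP2R3 and PPP2R5 genes together, however, PPP2R2D held 1.70% to 14.4% of the RPKM in STH. Their summed RPKM overlapped, at 56.4 to 78.9 in QHMM and 60.6 to 72 in STH. The striatin genes, which also encode PP2A subunits, are not members and are not in this sum.

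PPP2R3A encodes a calcium-binding B-type subunit found in heart and skeletal muscle. It stood at 709.7, 605.1 and 911.6 normalized counts in QHMM and at 424.2, 236.1 and 440.3 in STH. All STH libraries were below all QHMM libraries, and the means were 742.2 ± 155.8 and 366.8 ± 113.5 (SD, n = 3 each). The log2 fold change of -1.02 (SE 0.28, 95% interval -1.63 to -0.40) missed the threshold (FDR 0.0743). Its relative PPP2R3C was at 0.12, and PPP2R3B was listed at 0.

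The PPP2R5 genes encode the B-type subunits that act on signalling proteins such as those of the insulin and Wnt pathways. None of the 5 was called. PPP2R5A stood at 367.8, 330.1 and 472.1 in QHMM and at 294.6, 238.2 and 221.8 in STH, and PPP2R5C stood at 347.3, 255.2 and 356.3 in QHMM and at 232.7, 197.6 and 231.9 in STH. Neither gene overlapped between breeds in these counts, and the log2 fold changes were -0.63 (SE 0.23, FDR 0.164) and -0.53 (SE 0.22, FDR 0.225). In RPKM both genes overlapped, with STH replicate 1 at 9.95 and 13.4 and QHMM replicate 2 at 7.93 and 10.4. PPP2R5E was at -0.45, PPP2R5B at 0.08 and PPP2R5D at 0.20, with overlap in each. In RPKM, PPP2R5C made up 26.4% to 33.8% of the sum of these 5 genes in QHMM and 23.7% to 27.9% in STH, and PPP2R5D made up 20.5% to 27.4% in QHMM and 30.0% to 32.9% in STH, with no overlap for PPP2R5D.

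PPP2R4 encodes PTPA, the activator that loads metal ions into the PP2A catalytic site. It stood at 990.9, 931.7 and 746.2 in QHMM and at 529.8, 588.7 and 708.0 in STH. The highest STH library lay just under the lowest QHMM library, at a log2 fold change of -0.55 (SE 0.22, FDR 0.197). PPP2R1B, the less abundant scaffold gene, was at 0.18 (SE 0.26), with overlap.

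**Figure D5:**
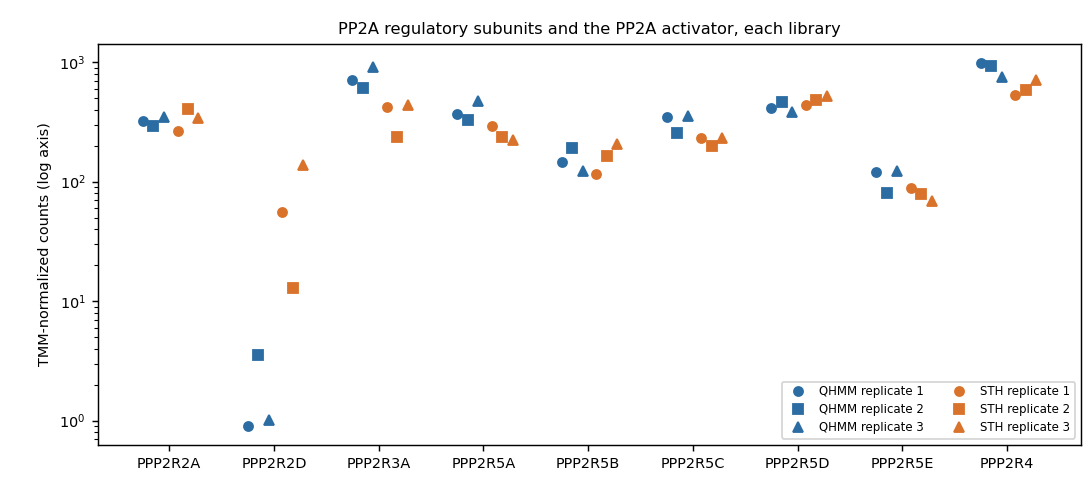
TMM-normalized counts (log axis) of 9 PP2A regulatory genes, with 1 point per library and 3 libraries per breed. PPP2R2D lies at 0.89 to 3.51 in QHMM and 12.8 to 136.7 in STH, and PPP2R3A, PPP2R5A, PPP2R5C and PPP2R4 are lower in each STH library than in each QHMM library.

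Of the 17 tested genes of PP2A assembly and of the STRIPAK complex, in which PP2A is joined to kinases, 1 was called. That is 5.88% of them against 3.45% of all tested genes, and their median log2 fold change was 0.02. STRIP2, a STRIPAK scaffold gene, stood at 225.0, 208.3 and 183.7 normalized counts in QHMM and at 1026, 1290 and 956.7 in STH. Each breed was tight around its mean, and STRIP2 rose by 2.41 on the log2 scale (SE 0.22, FDR 0.00208). It was called whichever library was left out, at 2.25 to 2.49. The striatin genes, which encode the PP2A subunits of that complex, were not called. ARPP19, an inhibitor of PP2A in mitosis, was at -0.77 (SE 0.27, FDR 0.142), and PPME1, which removes the methyl group of the PP2A catalytic subunit, was at -0.39 (SE 0.22, FDR 0.373).

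The 6 regulatory genes of PP4 and PP6 had log2 fold changes from -0.07 to 0.31 and none was called. PPP4R1, a regulatory subunit of PP4, stood at 169.6, 190.8 and 187.8 normalized counts in QHMM and at 238.5, 216.9 and 225.2 in STH. Its breeds did not overlap, at a log2 fold change of 0.31 (SE 0.21, FDR 0.463). The PP6 subunit genes PPP6R1, PPP6R2 and PPP6R3 were at similar levels, each between 26.4% and 41.6% of their summed RPKM in all libraries.

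The 11 members that were not tested had few or no reads. PPP1R17, PPP1R1C, PPP1R16A, PPP1R42 and PPP2R3B were at 0 in all libraries, and PPP1R14D and PPP1R32 had at most 3 counts in any library. PPP1R36 had 0 to 8 counts and PPP1R14A, an inhibitor known from smooth muscle, 7 to 14. With PPP2R2B and PPP2R2C, named above, this accounts for all 62 members.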

How the data were processed

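Per the labels and the study's methods, RNA of 3 QHMM and 3 STH females was sequenced on an Ion Proton instrument, and the authors mapped the reads to Oar 3.1, kept unique mapped reads and deposited counts per gene without normalization. RPKM values of the same genes, per kilobase and library total, were deposited as well. The aligner, counting program and annotation release are not given in the sources used here. All per-sample columns were used. Gene names are those of the table, which gives no positions. Whether reads were counted by strand is not stated.

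Counts were analysed in R 4.3.3 with edgeR 4.0.16 (TMM, filterByExpr, glmQLFTest, breed only; Benjamini-Hochberg adjustment over 12506 genes), after the code was tested on simulated data. The study's EBSeq test was not installed, and its thresholds were kept. The SE came from the log2 fold change and F. DESeq2 1.42.0, limma-trend (limma 3.58.1) on RPKM with a pseudocount of 1 or 0.1, where 3 libraries or more reached an RPKM of 1, and with no such filter, upper-quartile normalization, other filters, no minimum fold, the replicate block and leaving out each library were alternatives. Plots were drawn with matplotlib 3.10.9.

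Named with values per library were the catalytic, PPP1R3, PPP2R2 and called members. Also named were the 15 other members with the lowest unadjusted p, each called gene of the other lists and the 2 per list with the lowest p, except that some genes counted in those lists are not reported here. Other members, such as PPP1R15A, and the glycogen genes GYS1 and PYGM were named after their values were seen. The members, lists and markers were chosen with earlier results of these data known. The labels do not say more of the animals' origin than breed, so p-values measure the spread between these libraries.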

Additional observations from a re-analysis of the deposited data

How the results depend on the processing

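The 3 called members became 5 with DESeq2, 6 with no filter on low counts, 5 with the replicate number as a block and 1 with limma-trend on log2(RPKM + 1) of all genes. Leaving out each library gave 1 to 4, with 1 without QHMM replicate 1 and 4 without STH replicate 1. PPP1R16B and PPP2R3A were among those added with DESeq2 and with no filter, and PPP1R3B among those added with no filter and with the block. The 5 called genes of the other lists became 9 with DESeq2, 3 with upper-quartile normalization, 3 with limma-trend on log2(RPKM + 1), 3 with log2(RPKM + 0.1) and 1 with limma-trend on all genes. Leaving out each library gave 1 to 5, with 1 without any 1 of the QHMM libraries, 2 without STH replicate 2 and 3 without STH replicate 3. The causes were not tested. The log2 fold change of PPP2R2A turned to -0.10 without STH replicate 2 and ranged from there to 0.21 as each library was left out. Of the other values of the 28 named members under the alternatives, 372 kept their direction and side of the threshold, 8 gained a call and 10 lost it, 7 of them of PPP1R1B and 3 of PPP2R2D, which had too few counts to be tested at 10 counts in every library. Among all 51 tested members, 38 kept their sign in each fit. Over all genes, 432 calls became 975 with DESeq2, 806 with no filter, 78 with limma-trend on all genes and 131 to 535 with a library left out. The share of calls higher in STH, 47.0%, was 61.3% with log2(RPKM + 1), 62.1% with log2(RPKM + 0.1) and 69.2% on all genes, and the median of all genes moved from 0.02 to 0.12 and 0.14 in the first pair of these.

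The replicate numbers are not known to pair animals. Deviations of same-numbered libraries correlated at 0.221, -0.0338 and -0.125, and QHMM replicate 2 correlated best with STH replicate 3. In PPP2R2D the QHMM counts of 1 to 3 per library and the spread of 12 to 122 counts in STH limit how closely its fold can be given. The interval of 16.5 to 121.8 around the ratio of 39.1 pools reads over animals and covers counting error alone. The edgeR interval, 3.15 to 7.28 on the log2 scale, also takes in the spread between libraries.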
